A study of Capitella teleta with 10 samples.

Results

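The step that takes *Capitella teleta* out of gastrulation was examined by setting the libraries of stage 4tt against those of the gastrula. These were 4 of the 10 libraries of the series, chosen by their labelled stage, with 2 libraries for each stage. *C. teleta* is a marine segmented worm (annelid), and every library was made from mRNA of whole, untreated embryos or larvae, so that no cell type was isolated. The labels class stage 4tt with the embryos, whereas the study calls it an early post-gastrula larva. The 64-cell embryo and stages 5 and 7, also in duplicate, served to follow the changed transcripts before and after the step. The study calls its duplicates biological replicates, but the labels and methods name no separate broods for those of *C. teleta*. A p-value therefore measures only the spread between these libraries.

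During cleavage an animal embryo relies largely on RNA that the mother loaded into the egg, and it replaces much of this RNA with its own as the germ layers form. After gastrulation the embryo of *C. teleta* grows ciliary bands and lays down a brain, a gut and a segmented trunk while living on yolk. The larva that results swims but does not feed. Transcripts that rise after gastrulation can therefore be new, can have been present throughout at a lower level, or can have been present in the cleaving embryo and scarce at the gastrula. The 64-cell and gastrula libraries together describe these histories.

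The values were normalized read counts of 41221 transcript models, here called features. In the stage 4tt libraries they summed to 40492192 and 35525986, and in the gastrula libraries to 44954049 and 42779101. The smallest values of a library formed a cluster that was taken as 1 read. This read was worth 0.668 to 0.933 and 0.453 to 0.676 in replicates 1 and 2 of stage 4tt, against 0.644 to 0.963 and 0.604 to 0.869 in replicates 1 and 2 of the gastrula. A normalized count of 2 thus stood for 2.08 to 4.42 reads in these libraries, and values near it carry large counting error. Across features, replicate 2 of stage 4tt was closer to stage 5 replicate 2 (r = 0.960 on the log2 scale) than to its own duplicate (r = 0.946), whereas the gastrula libraries were closest to each other (r = 0.957). Only Capitella_post1 among the identifiers carries a gene name, and 0 identifiers matched a table of 31977 annotated genes, so the features are described by their levels and histories and not by function.

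To find which transcripts changed over the step, stage 4tt was compared with the gastrula by limma over 35526 features with a value above 2 in no fewer than 2 of the 10 libraries. Calls needed a change of more than 1 in log2(value + 1), in either direction, together with a Benjamini–Hochberg adjusted p under 0.05. Calls were made for 16.7% of the tested features, of which 3807 (10.7%) were higher and 2116 (5.96%) lower at stage 4tt. In all of them the stage 4tt libraries lay wholly above or wholly below the gastrula libraries. Such separation without regard to the call was common, with 9725 features (27.4%) wholly above and 10393 (29.3%) wholly below. At an unadjusted p under 0.05 with an equal minimum change, 5067 features (14.3%) were higher and 3094 (8.71%) lower.

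**Figure D1:**
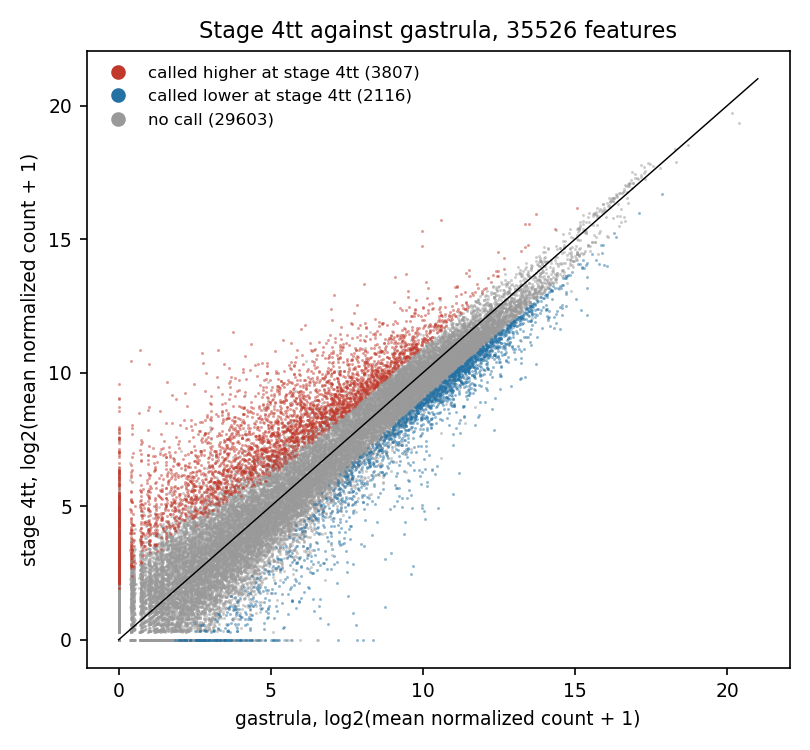
Mean normalized count of each tested feature at stage 4tt (vertical, 2 libraries) against the gastrula (horizontal, 2 libraries), both as log2(mean + 1), with features called higher in red, called lower in blue and not called in grey, and the line of equal levels in black. The 3807 rises spread widely above the line at low gastrula levels, and the 2116 falls lie in a narrower band below it at high gastrula levels.

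Rises were larger than falls and started from lower levels. The median rise was 2.51 on the log2 scale, with a quartile range of 1.72 to 3.53, and the median fall was -1.50 (quartiles of 1.19 to 2.30 in size). These fitted values include 397 rises listed at 0 in both gastrula libraries and 109 falls listed at 0 in both stage 4tt libraries, for which the value depends on the added 1. Without them the median rise was 2.37, a 5.17-fold change, and the median fall -1.46, a 2.74-fold change. A log2 change above 2 was reached by 2517 rises (66.1%) and 692 falls (32.7%), and one above 5 by 272 rises (7.14%) and 34 falls (1.61%). Over all tested features the median log2 fold change was -0.02.

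The levels in each library show how differently abundant these sets were. The median rising feature had 200.9 and 237.5 normalized counts in the stage 4tt libraries, against 30.4 and 35.7 in the gastrula libraries. The median falling feature had 418.2 and 438.0 normalized counts in the stage 4tt libraries, against 1265 and 1138 in the gastrula libraries. Falling features were therefore still more abundant at stage 4tt, at the median, than rising ones. Rises made up 8.21% ± 1.82 (SD, n = 2) of the total at stage 4tt and 1.86% ± 0.359 (SD, n = 2) at the gastrula. Falls made up 7.07% ± 0.275 (SD, n = 2) of the total at stage 4tt and 16.2% ± 0.458 (SD, n = 2) at the gastrula. No single feature dominated either sum, since the most abundant rise held 2.39% of the summed rises at stage 4tt and the most abundant fall 3.32% of the summed falls at the gastrula. The 100 most abundant of each set held 37.7% of the rises and 41.3% of the falls.

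The levels at the other stages placed these sets in time. Their libraries did not enter the difference itself, but they shared in the estimate of the spread that decided the calls. The median rising feature had 51.8 and 56.8 normalized counts in the 64-cell embryo, 308.9 and 298.4 at stage 5 and 336.7 and 304.2 at stage 7. Its level was thus lowest at the gastrula, and both later stages lay above both stage 4tt libraries. The median falling feature had 662.8 and 717.4 normalized counts in the 64-cell embryo, 343.5 and 399.3 at stage 5 and 425.7 and 418.9 at stage 7. Its level was highest at the gastrula, and the later stages stayed near stage 4tt. The rises held 4.23% ± 0.102 of the library total at the 64-cell stage, 10.6% ± 0.908 at stage 5 and 11.8% ± 1.12 at stage 7 (SD, n = 2 each), and the falls held 13.5% ± 0.982, 5.88% ± 0.868 and 6.47% ± 0.033 at the same stages (SD, n = 2 each). Because the gastrula libraries helped to choose both sets, an extreme at the gastrula is in part a matter of selection.

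**Figure D2:**
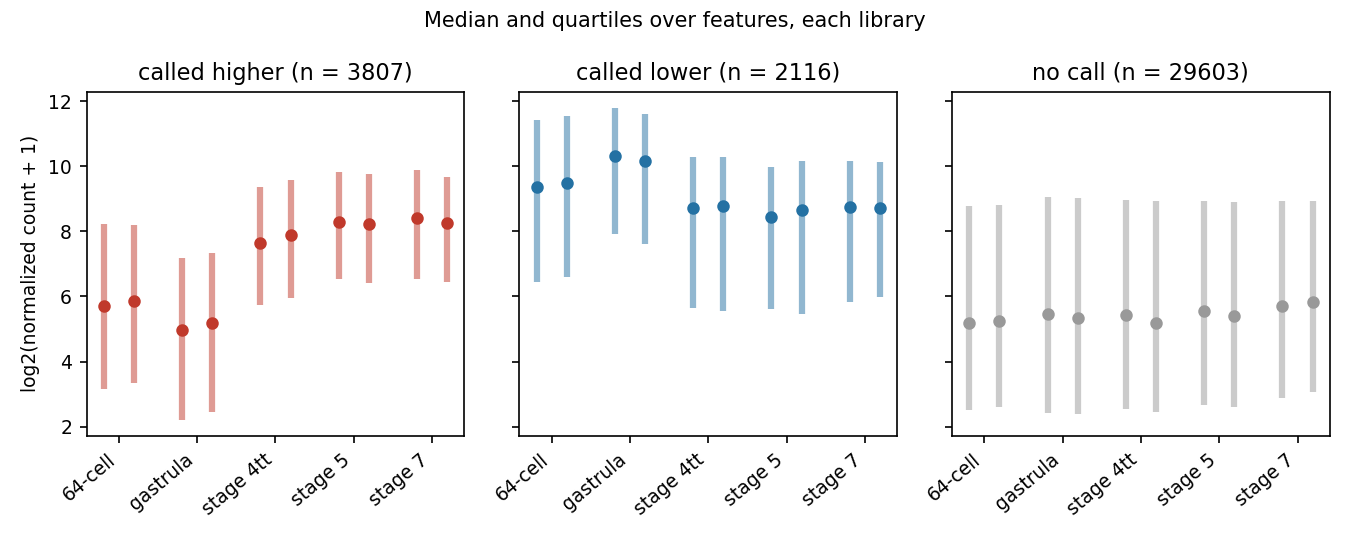
Median (point) and quartile range (bar) over features of log2(normalized count + 1) in each of the 10 libraries, for features called higher, called lower and not called at stage 4tt against the gastrula, with replicate 1 left of replicate 2. Rising features have their lowest medians at the gastrula (30.4 and 35.7 normalized counts) and stay high at stages 5 and 7, and falling features have their highest medians at the gastrula (1265 and 1138).

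The duplicates of each stage were not equally far from the other stage. Among the rises, replicate 2 of stage 4tt exceeded replicate 1 in 2458 features (64.6%), against 48.1% of all tested features, with a median difference of 0.21 on the log2 scale. Among the falls, gastrula replicate 1 exceeded replicate 2 in 1526 features (72.1%), against 47.9% of all tested features, with a median difference of 0.18. Between single libraries the median rise ranged from 2.28, for stage 4tt replicate 1 over gastrula replicate 2, to 2.64, for stage 4tt replicate 2 over gastrula replicate 1. The median fall ranged from -1.61 to -1.41, with the larger sizes against gastrula replicate 1. Without gastrula replicate 1 the fit called 2649 rises and 1113 falls, and 64.3% of the rises and 49.3% of the falls remained called. Without gastrula replicate 2 it called 3328 rises and 1765 falls. Without stage 4tt replicate 1 it called 3057 and 1964, and without stage 4tt replicate 2 it called 2646 and 1798. With only these 4 libraries in the fit, it called 1360 rises and 829 falls.

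Whether the changed features had been present at the 64-cell stage was asked next, taking a normalized count above 2 in both 64-cell libraries as present. Of the rises, 3101 (81.5%) were present at the 64-cell stage, 293 (7.70%) exceeded 2 in 1 library and 413 (10.8%) in neither. Of the falls, 1969 (93.1%) were present, 40 (1.89%) exceeded 2 in 1 library and 107 (5.06%) in neither. Of all features tested, 27128 (76.4%) were present and 2775 (7.81%) were listed at 0 in both 64-cell libraries, beside 319 (8.38%) of the rises and 80 (3.78%) of the falls. The share among rises was thus near or above that of all tested features, and the gap moved with the filter. It was 81.8% against 81.3% with a filter at 5, and 81.2% against 70.3% with no filter. Among rises with a log2 fold change above 2 the share was 72.7%, and with only the 4 gastrula and stage 4tt libraries in the fit it was 74.0%, both below that of all tested features. Among falls it was 80.8% and 90.1% under the same settings.

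The level at the 64-cell stage differed more between the sets than presence did. A mean above 1000 normalized counts was found for 410 rises (10.8%), 922 falls (43.6%) and 18.5% of all tested features. A mean above 10 and up to 100 was found for 1269 rises (33.3%), 333 falls (15.7%) and 28.2% of all tested features. Falling features were thus mostly abundant, and rising features mostly of low or middle abundance, in the cleaving embryo. Presence also followed the gastrula level, so the sets were compared within classes of it. At a gastrula mean of 0, 38.8% of 397 rises were present at the 64-cell stage, against 33.9% of all tested features. At a gastrula mean above 0 and up to 10, 64.3% of 857 rises and 51.2% of 86 falls were present at the 64-cell stage, against 47.8% of all tested features. At a gastrula mean above 10 and up to 100, 89.4% of 1326 rises and 74.6% of 276 falls were present, against 81.1% of all tested features. In the same class the median 64-cell level was 58.9 normalized counts for rises, 26.9 for falls and 24.9 for all tested features. Above a gastrula mean of 100 the shares ran from 96.3% to 100% for both sets and could hardly differ. The gastrula values that define these classes also entered the calls. Features above 2 in both 64-cell libraries pass the filter by these alone, which raises the shares of all tested features at low gastrula levels.

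**Figure D3:**
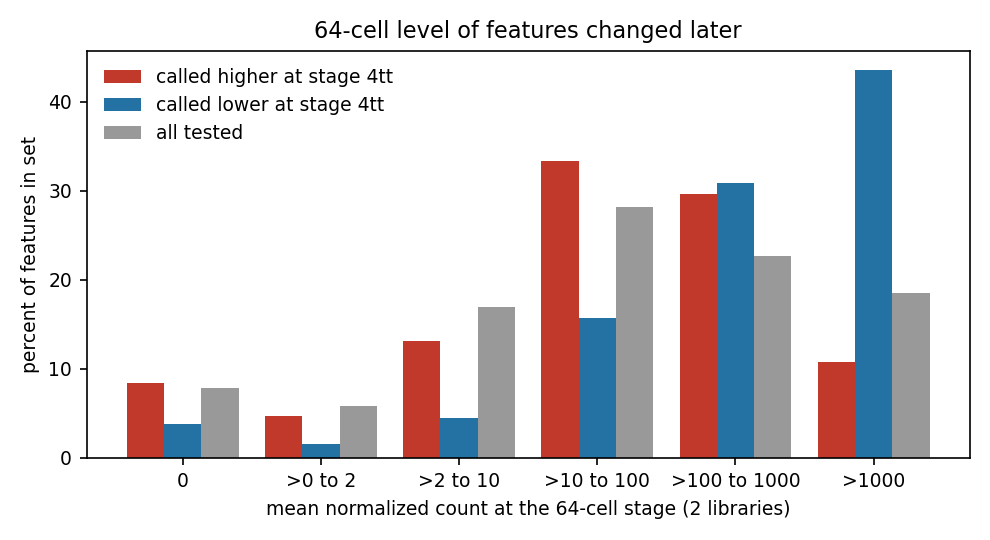
Share of features (percent, bars from 0) in classes of the mean normalized count at the 64-cell stage, for the 3807 features called higher and the 2116 called lower at stage 4tt than at the gastrula, and for all 35526 tested. Falls are concentrated above 1000 (43.6%) and rises between 10 and 1000, while 8.38% of the rises and 3.78% of the falls had a mean of 0.

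Presence at the 64-cell stage went with a different level among the rises. The 3101 rises present at the 64-cell stage had a median level of 96.9 normalized counts in the 64-cell embryo and 55.6 in the gastrula. It was 313.2 at stage 4tt, followed by 407.4 at stage 5 and 420.5 at stage 7. The 319 rises listed at 0 in both 64-cell libraries had medians of 0.340 in the gastrula and 23.1 at stage 4tt, followed by 32.6 at stage 5 and 31.1 at stage 7. Rises listed at 0 in both 64-cell libraries were thus less abundant, at the median, at every later stage. Their level at the 64-cell stage was fixed by the choice. Above 2 in both libraries were 269 of the 319 at stage 5 and 268 at stage 7. Among the falls, the 80 listed at 0 in both 64-cell libraries had medians of 16.0 at the gastrula and 0.32 at stage 4tt, followed by 1.01 at stage 5 and 2.37 at stage 7. Higher levels at the gastrula than at the 64-cell stage and stage 4tt were built into the choice of these 80. At the stages outside that choice, 19 of the 80 were above 2 in both libraries at stage 5 and 31 at stage 7.

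Features listed at 0 in both gastrula libraries and above 2 in both stage 4tt libraries numbered 588. The mirror set, listed at 0 in both stage 4tt libraries and above 2 in both gastrula libraries, numbered 178. Their levels were low, with a median of 7.89 normalized counts at stage 4tt for appearing features (quartiles of 4.70 and 18.3, highest 769.9), and of 5.98 at the gastrula for disappearing ones (quartiles of 3.95 and 11.1, highest 326.3). Both sets passed the filter by construction, and the gastrula and stage 4tt values that chose them also entered the calls. Calls among them were thus in part built into the choice. Of the appearing features 395 were called as rises, and of the disappearing ones 109 were called as falls. Over all tested features, 10.7% were called as rises and 5.96% as falls. Requiring more than 10 normalized counts in both libraries of the higher stage left 162 appearing and 33 disappearing features, of which 153 and 28 were called.

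A feature at 0 in 1 library was often well above 0 in its duplicate, and the cause of this was not tested. Within stage 4tt, 320 features were at 0 in replicate 1 and above 10 in replicate 2, and 258 the other way round. Within the gastrula these numbers were 316 and 283. Between stages, a stage 4tt library held 610 to 828 features above 10 (mean 736 over 4 pairs of libraries) that were at 0 in a gastrula library. A gastrula library held 206 to 463 features above 10 (mean 342) that were at 0 in a stage 4tt library. Appearance at stage 4tt thus exceeded the loss of features between duplicates, and disappearance did not clearly do so. When the condition was placed on 1 library of a stage only, the appearing features numbered 1249 without gastrula replicate 1, 1401 without gastrula replicate 2, 1119 without stage 4tt replicate 1 and 1177 without stage 4tt replicate 2. The disappearing ones numbered 537, 607, 453 and 842 in the same order.

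The other stages did not enter the choice of the 588 appearing features. At the 64-cell stage 190 of them (32.3%) were above 2 in both libraries, and 188 (32.0%) were at 0 in both. Of the 2901 tested features at 0 in both gastrula libraries, 33.9% were above 2 in both 64-cell libraries. The share among appearing features was thus near that of all tested features absent at the gastrula. A feature above 2 in both 64-cell libraries passes the filter by these alone, which raises the second share. The likeness of the shares therefore cannot show that the sets did not differ. At stage 5, 381 of the appearing features (64.8%) were above 2 in both libraries and 44 (7.48%) at 0 in both. At stage 7 the numbers were 398 (67.7%) and 32 (5.44%). Of the 162 features above 10 at stage 4tt, 148 (91.4%) were above 2 in both libraries at stage 5 and 142 (87.7%) at stage 7. Transcripts that appeared at stage 4tt at more than a few reads were therefore mostly still detected at stages 5 and 7. The limit of 2 used there is lower than the 10 that chose them, and other features of similar level were not compared. The 190 that had been present at the 64-cell stage had a median of 17.5 normalized counts there, 12.1 at stage 4tt and 22.9 at stage 7, and the highest of them reached a mean of 1466 at the 64-cell stage. The 188 at 0 at both earlier stages had a median of 6.87 at stage 4tt, followed by 8.84 at stage 5 and 8.38 at stage 7, and the highest mean of any of them was 769.9, 3286 and 14958 at these stages, not always in the same feature.

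The 178 disappearing features mostly stayed low. They were above 2 in both libraries in 20 cases (11.2%) at stage 5 and in 38 (21.3%) at stage 7, and at 0 in both in 73 (41.0%) and 49 (27.5%). At the 64-cell stage 80 (44.9%) had been above 2 in both libraries, and these had a median of 7.25 normalized counts at the gastrula, against 36.8 at the 64-cell stage, while 46 (25.8%) had been at 0 in both. Part of both sets concerned alternative models of expressed genes. The sum over all models of the gene exceeded 2 in a library of the lower stage for 109 of the 588 appearing and 32 of the 178 disappearing features.

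**Figure D4:**
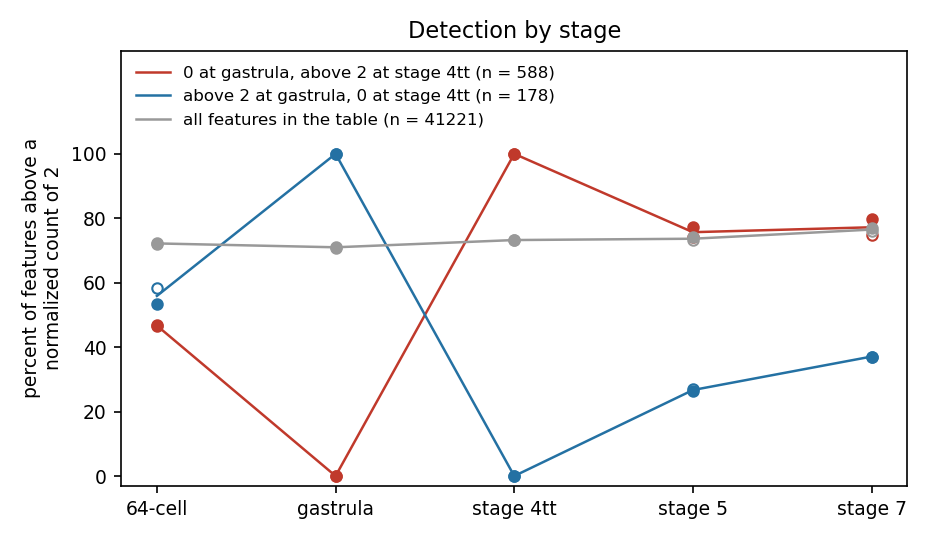
Percent of features above a normalized count of 2 at each stage (open points replicate 1, filled points replicate 2, lines the mean of both), for 588 features at 0 at the gastrula and above 2 at stage 4tt, 178 features with the opposite pattern, and all 41221 features. The values at the gastrula and stage 4tt are fixed by the choice, while 46.7% of the appearing features exceeded 2 at the 64-cell stage, 75.7% at stage 5 and 77.2% at stage 7, and 26.7% of the disappearing ones did at stage 5.

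The largest changes were taken among 3587 rises with a stage 4tt mean of 10 or more and 2030 falls with a gastrula mean of 10 or more. The 20 largest rises had log2 fold changes of 7.63 to 10.12 and means of 225.7 to 2960 at stage 4tt, against 0 to 12.6 at the gastrula. At the gastrula 9 of these 20 were listed at 0 in both libraries and only 2 exceeded 2 in both. A value of 0 in at least 1 gastrula library was found for 17 of the 20. Their fold changes and order thus depend on the added 1. Replicate 2 of stage 4tt exceeded replicate 1 in 17 of the 20. At the 64-cell stage 14 of the 20 had exceeded 2 in both libraries, beside 76.4% of all tested features. Only 2 of the 20 had exceeded 100 in both 64-cell libraries, and 2 were at 0 in both. Their median was 15.5 normalized counts at the 64-cell stage, 525.0 at stage 4tt, followed by 1084 at stage 5 and 701.7 at stage 7, and 19 of the 20 remained above 100 in both stage 5 libraries. Among the 100 largest rises, with log2 fold changes of 5.98 and above, 62 had been above 2 in both 64-cell libraries. That share is below the 81.5% of all rises and the 76.4% of all tested features. The choice by size favours low gastrula levels, and the median of these 100 there was 0.68 normalized counts. Of all tested features, 33.9% were present at a gastrula mean of 0 and 47.8% at one above 0 and up to 10. The lower share is thus not particular to the largest rises. Above 100 in both libraries were 88 of these 100 at stage 5 and 74 at stage 7.

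The 20 largest falls had log2 fold changes of 5.52 to 8.30 in size and means of 0 to 42.6 at stage 4tt, against 49.9 to 2014 at the gastrula. At the 64-cell stage 11 of the 20 exceeded 100 in both libraries, up to a mean of 26488, and 2 were at 0 in both. Their median was 825.8 normalized counts in the 64-cell embryo, 223.8 in the gastrula and 1.22 in stage 4tt. Transcripts more abundant in the 64-cell embryo and transcripts more abundant at the gastrula thus both stood among the largest falls. In 19 of these 20, gastrula replicate 1 exceeded replicate 2. A value of 0 in at least 1 stage 4tt library was found for 12 of the 20, so their fold changes also depend on the added 1. Among the 100 largest falls, 79 had been above 2 in both 64-cell libraries, beside 93.1% of all falls and 76.4% of all tested features. Of these 100, 0 exceeded 100 in both stage 5 libraries, and 7 did so at stage 7.

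The largest rise among features absent from both gastrula libraries was that of CTELG00000027001.1. It had 527.7 and 1012 normalized counts at stage 4tt and was listed at 0 in both gastrula libraries and in both 64-cell libraries. It then had 3065 and 3506 at stage 5 and 4859 and 2277 at stage 7, so its levels at stage 5 lay above those at stage 4tt without overlap. The limma fit gave an adjusted p of 4.34e-05, and no fold change is given against 0. Under the alternatives its adjusted p ranged from 3.32e-05 to 0.0416, the highest with only 4 libraries in the fit.

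The largest rise among features above 2 in both gastrula libraries was that of CTELG00000002070.1. It had 1508 and 1939 normalized counts at stage 4tt and 6.94 and 4.27 at the gastrula, a difference of 8.05 on the log2 scale with an SE of 0.58 (limma, adjusted p = 9.39e-05). The 64-cell libraries held 8.83 and 43.5, so the feature had been present in the cleaving embryo at a low level. It went on to 10866 and 9671 at stage 5 and to 9650 and 6754 at stage 7. Its log2 difference stayed between 7.35 and 8.34 under the alternatives run.

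Among features listed at 0 in both stage 4tt libraries, the largest fall was that of CTELG00000019714.1. It was at 0 in both stage 4tt libraries and had 414.9 and 237.7 normalized counts at the gastrula (adjusted p = 0.000117 by limma). It passed the filter only through the gastrula libraries, where it was high. At the 64-cell stage it had 0.844 and 0, at stage 5 it was at 0 in both libraries, and at stage 7 it had 0 and 0.441. Each of these values above 0 corresponds to 1 read, so the feature was detected almost only at the gastrula. It could not be fitted without either gastrula library, because it then failed the filter, and its call rests on both.

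Among features above 2 in both stage 4tt libraries, CTELG00000025444.1 fell most. It had 5.08 and 3.98 normalized counts at stage 4tt and 857.0 and 687.3 at the gastrula, a difference of -7.13 on the log2 scale with an SE of 0.73 (limma, adjusted p = 0.000326). The 64-cell libraries held 2514 and 3567, and the feature was at 3.83 and 0 at stage 5 and at 0 in both stage 7 libraries. Its mean level was thus lower at each later stage, from the 64-cell embryo on. The 4 features were picked for the size of their change, so their adjusted p-values are not independent of that choice. The 4 features are each the only model of their gene, and sharing of reads with near-identical genes was not examined. Capitella_post1, the posterior Hox gene Post1, a member of the transcription factor family that patterns the body axis, was listed at 0 in both stage 4tt, both gastrula and both 64-cell libraries and at stage 5, and had 39.3 and 42.1 normalized counts at stage 7.

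**Figure D5:**
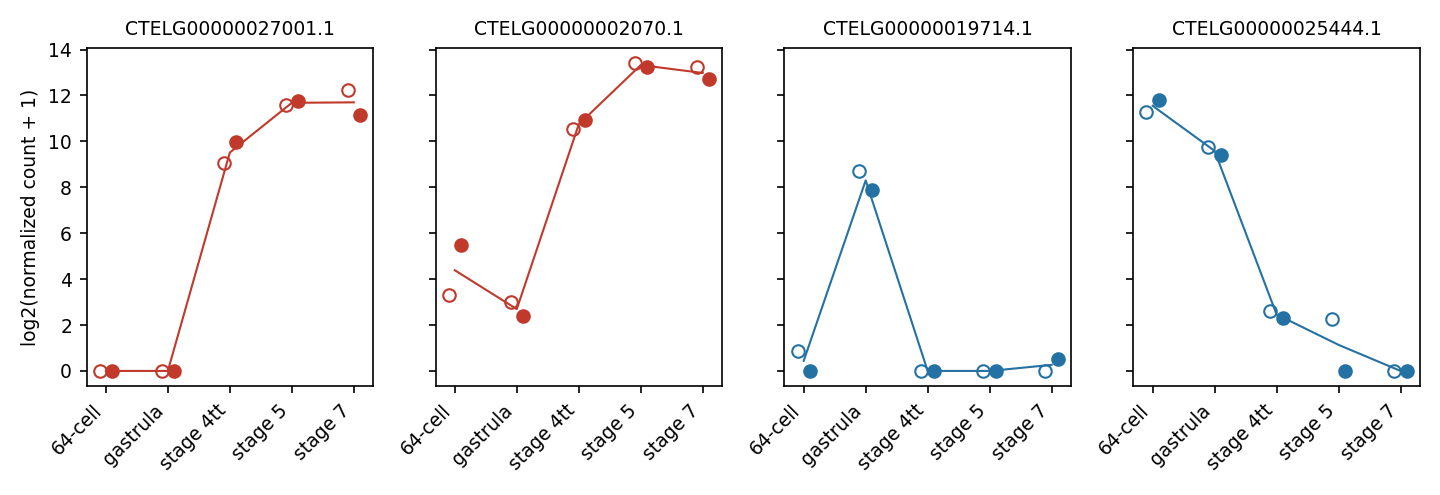
Values of 4 features as log2(normalized count + 1) at each stage (open points replicate 1, filled points replicate 2, lines the mean of both). The rises CTELG00000027001.1 and CTELG00000002070.1 reach 527.7 and 1012 and 1508 and 1939 normalized counts at stage 4tt and are higher at stage 5, the fall CTELG00000019714.1 is high at the gastrula alone, and CTELG00000025444.1 is highest at the 64-cell stage.

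Changes of separate models of the same gene were mostly in 1 direction. The rises came from 3672 gene identifiers and the falls from 2040, and of 210 identifiers with at least 2 called models, 12 had both a rising and a falling model. Features of genes with several models made up 15.7% of the rises, 20.3% of the falls and 17.2% of all tested features. They made up 28 of the 100 largest rises and 21 of the 100 largest falls. Pseudo-alignment can move reads between such models, and its part in these changes was not tested.

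Rising genes often carried neighbouring identifier numbers. Of the 3672 identifiers with a rise, 1230 (33.5%) had a rise under the number directly before or after theirs, against 19.5% of all 32163 numbered identifiers tested. Of the 2040 with a fall, 493 (24.2%) had a fall under an adjacent number, against 11.2% of all tested. Across directions the shares at adjacent numbers were below those of all tested, with a fall next to 9.15% of the identifiers with a rise and a rise next to 16.1% of those with a fall. Within 5 numbers the same-direction shares were 72.1% for rises, against 60.2% of all tested, and 55.5% for falls, against 40.9%. At that distance the shares across directions were close to those of all tested, with 40.4% against 40.9% for a fall near a rise and 60.7% against 60.2% for a rise near a fall. Whether adjacent numbers stand for neighbouring genes, copies of a gene or pieces of 1 gene was not stated by the labels or the methods.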

How the data were processed

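Total RNA of snap-frozen whole embryos and larvae was made into strand-specific mRNA libraries. The authors pseudo-aligned reads to their filtered gene models with kallisto (v0.46.2) and normalized read counts with DESeq2 (v1.30.1), so the deposited signal is a normalized count per transcript model, with replicates kept apart. Near-identical models can exchange reads. The value of 1 read varied between features of a library, so read numbers could not be restored and count models were not used.

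Values were analysed as log2(value + 1) for features above 2 in at least 2 of 10 libraries. All 10 libraries entered a linear model by stage in limma (v3.58.1) with R (v4.3.3), with a mean-variance trend in the moderation, so the stages shared 1 estimate of the spread (median SE 0.58 for a log2 fold change). The code of the fit was run on simulated data with planted changes and independent normal noise. These data lack the unequal duplicates seen here, so the run does not give the error rate of the calls. Descriptions used Python (v3.11.15), numpy (v2.4.6), pandas (v2.3.3) and matplotlib (v3.10.9). The members, sets and the rule for named features were chosen with earlier results of these data known. That rule took any identifier that is a gene name and, since no other identifier has one, 2 rises and 2 falls: in each direction the largest among features at 0 in both libraries of the lower stage and the largest among those above 2 in both, where the higher stage averaged 10 or more and the libraries did not overlap. No coordinates or sequences are given, because the identifiers matched no entry of the Capca1 gene table. Alternatives were median-ratio scaling, array weights, other filters, pseudocounts and fold-change minimums, a replicate block, a fit of 4 libraries, sums per gene identifier, other limits for presence and absence, and leaving out each library.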

Additional observations from a re-analysis of the deposited data

How the results depend on the processing

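Of 80 values recomputed with all libraries kept, 56 stayed within 1.5 times the reported count or within 1 SD of the reported share, and so did 51 of 68 with 1 library left out. The 4 named features kept their direction and call in all 78 fits that gave a value. With only the 4 gastrula and stage 4tt libraries the fit called 1360 rises and 829 falls, of which 1007 and 747 were present at the 64-cell stage, and the rises held 3.39% of the stage 4tt total and the falls 8.23% of the gastrula total. Such a fit has fewer degrees of freedom by construction. A minimum of 2 for the log2 fold change left, by construction, 2517 rises and 692 falls, with 1829 and 559 present at the 64-cell stage and shares of 4.10% and 2.74%. With no minimum fold change, falls numbered 3821, of which 3672 were present, the shares were 12.0% and 35.9%, and rises made up 53.3% of the calls instead of 64.3%. With median-ratio scaling there were 3976 rises and 1691 falls, and rises made up 70.2% of the calls, so the balance of rises and falls moved with the scaling. The share of falls in the gastrula total was 13.1% with median-ratio scaling, 15.7% with a pseudocount of 0.1 and 19.8% with the replicate block. Appearing features numbered 292 and 162, and disappearing ones 67 and 33, when presence required 5 and 10, and 291 features disappeared when values up to 1 counted as absent. For settings without a stated cause, the cause was not tested. With 1 library omitted there were 1113 to 2122 falls, 1086 to 1980 falls present at the 64-cell stage, shares of 6.12% to 8.54% for rises and 12.4% to 21.2% for falls, 1119 to 1401 appearing and 453 to 842 disappearing features. The share of falls was highest without stage 4tt replicate 1 and lowest, as the share of rises was, without gastrula replicate 1. With the replicate number as a block, 3882 rises and 2213 falls were called. The deviations of same-numbered libraries of the 2 stages correlated at 0.11 across features. This value rests on 1 pair of stages with 2 libraries each, so it cannot decide whether equal numbers mark a pairing. Replicates 2 of stages 4tt and 5 were closest to each other (r = 0.960), and every other library was closest to its own duplicate. The methods state that replicates of *Owenia fusiformis*, another annelid of the study, were paired by fertilization. They add the *C. teleta* duplicates as collected likewise, without saying whether the pairing held for them. The main fit used no pairing, and a common origin of same-numbered libraries was not tested. Depth limits the features near a value of 2, which stands for 2.08 to 4.42 reads.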
